A study of Mus musculus with 8 samples.

Results

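The t-complex genes examined here were the genes whose symbol in the array annotation starts with Tcp1 or Tcte, which picked out 9 genes, read by 10 of the 12422 probe sets on the array. Each probe set combines several short probes for a transcript into 1 value. Total RNA from mouse testis had been hybridised to Affymetrix arrays in 4 groups of 2, labelled castaneus, domesticus, musculus and ssp after the word that follows Mus musculus in each title. The labels name no strain, age, treatment or allele, leave ssp unexplained, and call the 2 arrays of a group technical replicates. How many animals contributed to each RNA is not stated in the sources used. Every p-value below therefore rests on the spread between technical arrays, and every comparison is between these RNA samples. Whether the probes match the transcripts of the 4 groups equally well was not tested, nor was the number of gene copies in each group. The series asks which testis genes are expressed differently among these mice.

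The t complex is the proximal part of mouse chromosome 17, where wild house mice can carry a variant form known as a t haplotype, held together by inversions and passed on by male carriers to more than their Mendelian share of offspring. Genes of the region were named Tcp, for t-complex protein, or Tcte, for t-complex testis expressed, and several encode parts of the sperm tail or proteins of developing germ cells. The labels do not say whether any animal carried a t haplotype.

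The 10 probe sets were 2 of Tcp1, 1 of its pseudogene Tcp1-ps1, 1 of Tcp10b, 2 listed for Tcp10a, Tcp10b and Tcp10c together, and 1 each of Tcp11, Tcte1 and Tcte2, with 1 listed for Tcte3 together with Gm3417 and Gm3448. In the RefSeq gene table the last 2 names have Tcte3 among their synonyms. All these genes lie on chromosome 17 except Tcp1-ps1, which is on chromosome 4. Along chromosome 17 they run in the order Tcp10a, Tcp1, Tcp10b, Tcp10c, Tcte2, Gm3417, Gm3448, Tcte3, Tcp11 and Tcte1. Transcripts of Tcp10, Tcp11, Tcte1, Tcte2 and Tcte3 were well above the lowest values on all 8 arrays, and Tcte2 separated the 4 RNAs most cleanly. No member passed the threshold for a difference among the groups.

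The duplicated members are shown first as sequence, because 3 of the probe sets cannot be assigned to 1 gene. RefSeq windows of assembly GRCm38.p6 were found for 9 of the 11 genes listed, and the 250 bases before the annotated start are printed here, 5′ to 3′ on the gene's strand. For Tcp10a (chr17:7324410-7324659, plus strand), Tcp10b (chr17:13060861-13061110, plus strand) and Tcp10c (chr17:13354322-13354571, plus strand), the capital marks the only position that differs among all 3 where their windows overlap.
Tcp10a: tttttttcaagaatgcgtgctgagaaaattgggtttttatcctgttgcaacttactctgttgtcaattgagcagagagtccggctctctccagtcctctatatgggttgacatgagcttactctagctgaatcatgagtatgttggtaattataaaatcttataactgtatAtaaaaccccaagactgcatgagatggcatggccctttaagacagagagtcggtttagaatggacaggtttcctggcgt
Tcp10b: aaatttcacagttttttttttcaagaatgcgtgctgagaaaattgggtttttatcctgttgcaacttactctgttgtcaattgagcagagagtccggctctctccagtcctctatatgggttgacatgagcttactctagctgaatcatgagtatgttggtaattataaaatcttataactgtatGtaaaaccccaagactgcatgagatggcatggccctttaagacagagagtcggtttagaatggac
Tcp10c: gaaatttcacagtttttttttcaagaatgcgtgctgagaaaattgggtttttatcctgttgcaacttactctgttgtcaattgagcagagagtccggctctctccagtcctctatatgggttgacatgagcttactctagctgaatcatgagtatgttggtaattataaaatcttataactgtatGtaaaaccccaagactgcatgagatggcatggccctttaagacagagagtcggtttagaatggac
Tcp10a matched Tcp10b at 235 of 236 aligned bases and Tcp10c at 235 of 236, and Tcp10b matched Tcp10c at 249 of 250 with 1 base of a run of T missing. The windows of Tcte3 (chr17:15041560-15041809, minus strand), Gm3417 (chr17:14978813-14979062, minus strand) and Gm3448 (chr17:15010185-15010434, minus strand) were identical at all 250 bases, so 1 sequence is printed for the 3 copies.
Tcte3: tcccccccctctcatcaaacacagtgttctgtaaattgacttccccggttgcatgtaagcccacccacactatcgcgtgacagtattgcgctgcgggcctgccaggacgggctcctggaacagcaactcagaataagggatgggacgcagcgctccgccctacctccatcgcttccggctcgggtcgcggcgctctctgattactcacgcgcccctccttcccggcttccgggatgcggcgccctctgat
Because the annotation lists several copies for these probe sets, their intensities are given for the copies together. The windows printed lie before the annotated start and do not show which copies the probes match. Neither probe nor transcript sequences were compared, and which copy the RNA came from was not tested.

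Upstream sequences of Tcp11 and Tcte2, the members with the narrowest group span and the lowest adjusted p, are printed for comparison. The windows were searched on both strands for TGACG, the core of the cAMP response element bound by CREM in spermatids, and for GTTGCC, a core of the X-box bound by RFX factors; the 2 motifs share no bases in the windows printed, and capitals mark a match. Tcp11 (chr17:28080640-28080889, minus strand) is shown by the most upstream of its 3 windows.
Tcp11: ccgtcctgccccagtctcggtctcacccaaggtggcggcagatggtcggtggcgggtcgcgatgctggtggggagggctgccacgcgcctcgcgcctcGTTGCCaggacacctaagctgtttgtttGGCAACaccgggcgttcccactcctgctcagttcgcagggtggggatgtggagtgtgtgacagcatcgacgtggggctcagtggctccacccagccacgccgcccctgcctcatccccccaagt
Tcte2: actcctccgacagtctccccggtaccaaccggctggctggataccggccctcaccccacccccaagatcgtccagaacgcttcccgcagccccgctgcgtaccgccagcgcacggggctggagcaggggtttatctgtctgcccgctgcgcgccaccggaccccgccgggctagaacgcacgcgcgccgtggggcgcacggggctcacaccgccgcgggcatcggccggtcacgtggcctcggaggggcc
The Tcp11 window held GTTGCC in each orientation. The motif was found in 10.4% of all 32851 promoter windows, and 0.74% held it more than once. The Tcte2 window (chr17:13761404-13761653, minus strand) held neither motif, nor did those of Tcp1, the Tcp10 copies and the Tcte3 copies. TGACG was found in 17.8% of all windows and, among the members, in the most downstream Tcp11 window alone. The Tcte2 window held 32 CpG dinucleotides and was 73.6% G or C, the Tcte3 windows held 21, the Tcp11 window shown 19 and the Tcp1 window 17, against a median of 6 over all windows. The Tcp10 windows held 3 or 4 and were 39.2% to 40.8% G or C.

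**Figure D1:**
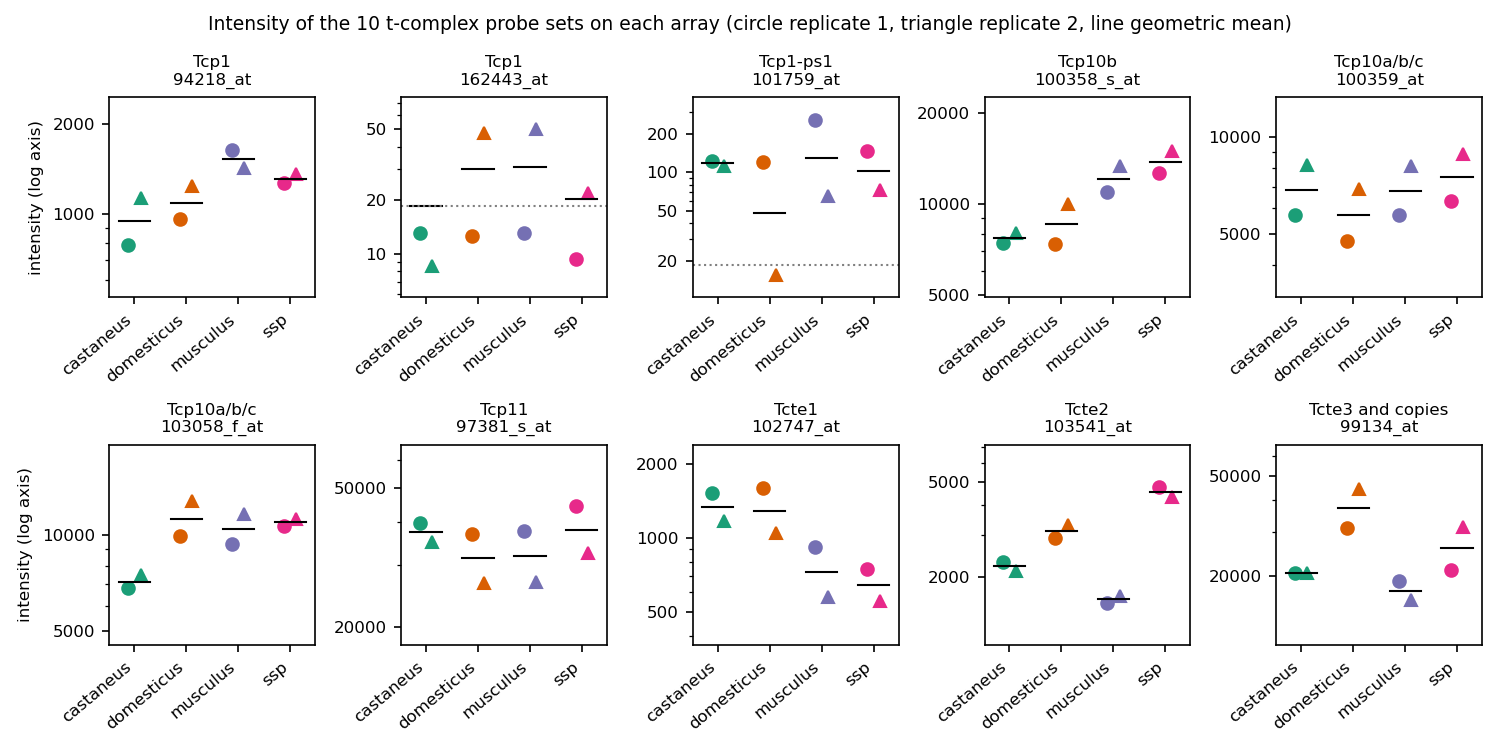
Intensity of each of the 10 probe sets on each array, on a log axis, by group from left to right. Circles are replicate 1, triangles replicate 2, black lines the geometric mean of a group after values under the floor of 18.7 (dotted) were raised to it. The 4 groups of Tcte2 do not overlap, while the dim Tcp1 probe set and Tcp1-ps1 reach below the floor.

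Values are the deposited linear intensities, group values are geometric means over 2 arrays, and SDs are on the log2 scale with n = 2 arrays. Probe sets entered the test when 2 or more of the 8 arrays read at or above their own 40th percentile. Of the 10 member probe sets, 9 were tested, among 8874 in all, and the second Tcp1 probe set was too dim. A difference among the groups was called at a limma F test adjusted p under 0.05, adjusted over all 8874, with group means spanning at least 1 on the log2 scale. By this rule 0 of 9 members differed, against 1.76% of all tested probe sets. At an unadjusted F test p under 0.05 there was 1 of 9, Tcte2, against 15.9%. Over the 6 pairs of groups limma called 0 of 54 member differences, against 0.731% of all pair tests, and 10 of 54 had an unadjusted p under 0.05, against 12.2%. Pair by pair the count was 0 of 9, against 0.676% of tested probe sets for castaneus and domesticus, 0.947% for castaneus and musculus, 0.349% for castaneus and ssp, 0.744% for domesticus and musculus, 0.687% for domesticus and ssp, and 0.98% for musculus and ssp. None of the 9 was specific to a group by limma, against 0.563%. The span reached 1 on the log2 scale for 4 of 9 members, against 38.7%. The median span of the members' group means was 1.79-fold, and that of all tested probe sets was 1.75-fold.

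**Figure D2:**
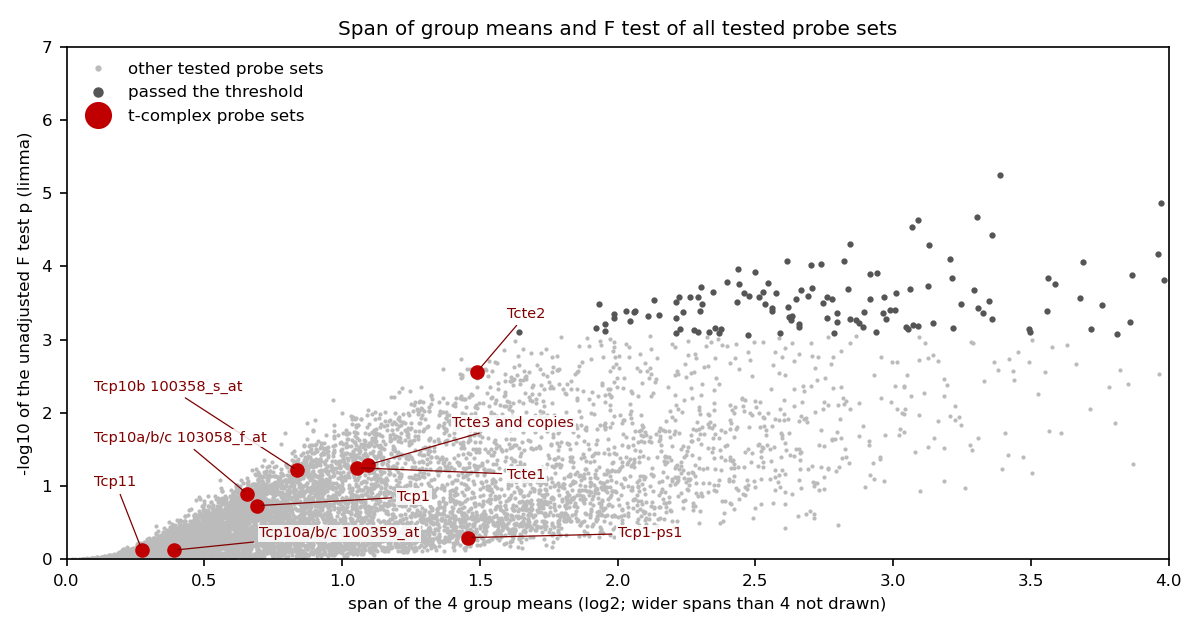
Each point is a tested probe set, with the span of its 4 group means (log2) on the horizontal axis and -log10 of the unadjusted limma F test p on the vertical axis. The 9 t-complex probe sets (red) all lie below the probe sets that passed the threshold (dark grey), with Tcte2 nearest to them at a span of 1.49.

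Tcte2, a testis transcript mapped to the t complex, had the lowest adjusted p of the members. Its intensities were 2317 and 2116 in castaneus, 2917 and 3301 in domesticus, 1564 and 1672 in musculus, and 4773 and 4324 in ssp. No 2 groups overlapped, with both ssp arrays above all others and both musculus arrays below all others. Only 3.03% of tested probe sets had 4 groups without overlap, and Tcte2 was the single member among them. Its group means were 2215 in castaneus (SD 0.09), 3103 in domesticus (SD 0.13), 1617 in musculus (SD 0.07) and 4543 in ssp (SD 0.10). The 4 means spanned 2.81-fold and did not pass the limma F test (adjusted p = 0.0842).

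The musculus and ssp RNAs differed most in Tcte2, at 1617 and 4543, a log2 difference of -1.49 (SE 0.23, 95% interval -2.05 to -0.93, limma adjusted p = 0.0518). This value lay just outside the threshold. It passed with the filter at the 60th percentile (adjusted p = 0.0158), with an offset of 50 in place of the floor (0.0297), with quantile normalization (0.0444) and with a trended, robust variance (0.00308). It did not pass in the other 12 alternatives, up to an adjusted p of 0.212, and kept its direction in all 16. Castaneus and ssp, at 2215 and 4543, differed by -1.04 (95% interval -1.60 to -0.47, adjusted p = 0.175), a pair that passed with the trended, robust variance (0.0288). Domesticus and musculus, at 3103 and 1617, differed by 0.94 (95% interval 0.38 to 1.50, adjusted p = 0.172). In the order ssp, domesticus, castaneus, musculus, the intervals of the differences between neighbours all held 0, so only groups farther apart in that order were separated by their intervals.

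The musculus RNA, lowest in Tcte2, had the highest summed signal of the Leydig cell, erythroid, macrophage and Sertoli cell markers. The 10 probe sets of 7 Leydig cell genes summed to 13809 and 14747 in musculus, against 3635 to 5745 on the other 6 arrays. By limma 2 of the 10 passed. Of the 10, 6 were highest in musculus and 1 was lowest there. A single Cyp17a1 probe set read 8656 and 9709 in musculus. The second Cyp17a1 probe set was dim and had its lowest group mean in musculus, 102.2, from arrays at 40.2 and 259.8. In musculus the 2 erythroid probe sets, of Hba-a1 and Alas2, summed to 13970 and 17682, against 1558 to 5394 elsewhere. Hba-a1 alone read 13328 and 16971 in musculus. The 11 macrophage probe sets summed to 4042 and 3084 in musculus, against 1807 to 2513 elsewhere. The 11 Sertoli cell probe sets summed to 13404 and 13084 in musculus, 12092 to 12682 in castaneus and domesticus, and 11638.5 and 11930.5 in ssp. Of these 11, 0 passed, 3 were highest in musculus and 3 were lowest there. The 2 epididymis probe sets summed to 232.4 and 261.2 in ssp, against 72.5 to 221.8 elsewhere. Both were dim, with group means from 21.6 to 138.0 where array medians ran from 151 to 183. Neither passed (limma F test adjusted p = 0.107 and 0.887). The summed pachytene spermatocyte markers were lowest in domesticus, at 44035 and 44899, against 46612 to 62523 elsewhere. Of their 6 tested probe sets, 3 were lowest in musculus and 1 in domesticus. That 1 was Hspa2, at 4422 in domesticus against 7985 to 9439 in the other groups. In the sums of the spermatogonium and striated muscle lists no group stood apart from the other 6 arrays. Spermatid markers summed to 339111 and 286927 in musculus, within or below the 306694 to 428402 of the other arrays. Of their 14 tested probe sets 0 passed, 10 were highest in ssp and 0 were lowest there. Among all tested probe sets 28.8% were highest in ssp and 23.1% lowest. Of all these marker probe sets, 1, a second Prm2 probe set among the spermatid markers, was under the floor on all 8 arrays. The part of these cells in the Tcte2 values was not tested. In whole-tissue RNA, fewer cells of a type and less RNA per cell cannot be told apart.

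**Figure D3:**
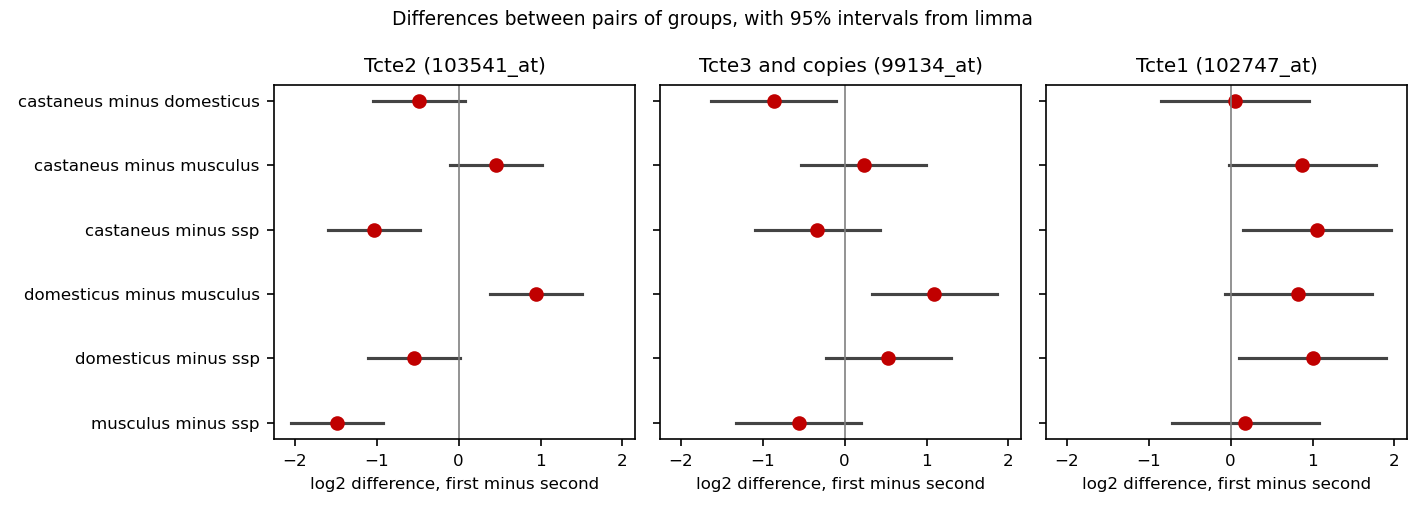
Points are log2 differences between group means (first named minus second) for Tcte2, the Tcte3 copies and Tcte1, and bars are 95% intervals from the limma fit over 8 arrays. For Tcte2 the intervals of castaneus minus ssp, domesticus minus musculus and musculus minus ssp do not reach 0.

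Tcte1 and Tcte3 encode parts of the sperm axoneme, the microtubule core of the tail. Tcte1 is a subunit of the nexin-dynein regulatory complex, which links neighbouring microtubule doublets. Its intensities were 1525 and 1173 in castaneus, 1591 and 1045 in domesticus, 917.4 and 577.4 in musculus, and 749.6 and 552.9 in ssp. All 4 castaneus and domesticus arrays were above all 4 musculus and ssp arrays, a split seen after the values were known and given with no test. How many of all tested probe sets split in such a way was not counted. The castaneus mean of 1337 and the ssp mean of 643.8 differed by 1.05 on the log2 scale (SE 0.37, 95% interval 0.16 to 1.95, limma adjusted p = 0.371). The 4 means spanned 2.08-fold and did not pass (F test adjusted p = 0.325). Castaneus and domesticus, and likewise musculus and ssp, overlapped.

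Tcte3 encodes a light chain of axonemal dynein, the motor of the tail. The probe set of Tcte3 and its copies read 20461 and 20459 in castaneus, 31172 and 44557 in domesticus, 19088 and 15939 in musculus, and 21185 and 31356 in ssp. Both musculus arrays were below the other 6, and the domesticus and ssp ranges overlapped. The domesticus mean of 37268 was 2.14-fold the musculus mean of 17442, a log2 difference of 1.10 (SE 0.32, 95% interval 0.33 to 1.86, limma adjusted p = 0.229). With a trended, robust variance this pair passed (adjusted p = 0.0437). The F test did not pass (adjusted p = 0.317).

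Other axonemal and light chain genes were measured by 12 probe sets of 8 genes from a list of 26 names, and 0 of the 10 tested passed by limma, with 3 at an unadjusted p under 0.05 and a median span of 1.74-fold. Drc1, another subunit of the regulatory complex, had 1 probe set at 1504, 2811, 1550 and 1016 in castaneus, domesticus, musculus and ssp (adjusted p = 0.162). It passed with the trended, robust variance alone (adjusted p = 0.0231). Its second probe set read 194.1 to 258.7, and Gas8, also of that complex, spanned 1.76-fold and 1.29-fold. Among light chains, a dim Dynll2 probe set read 11.9 and 28.7 in musculus, with 1 of these arrays under the floor, against 60.2 to 171.8 on the other 6 (adjusted p = 0.197). Dynlrb1 spanned 2.25-fold (adjusted p = 0.175). The other Dynll2 probe set read 675.5 in musculus, above the 391.8 to 568.0 of the others.

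The Tcp10 copies are transcribed in male germ cells, and Tcp10b was once studied as a candidate responder to t-haplotype distortion. The Tcp10b probe set read 7441 and 8039 in castaneus, 7391 and 10022 in domesticus, 10954 and 13446 in musculus, and 12680 and 15059 in ssp. All 4 musculus and ssp arrays were above all 4 castaneus and domesticus arrays. Like the split of Tcte1, this was seen after the values were known. It is given with no test and no share of all tested probe sets. The 4 means spanned 1.79-fold and did not pass (limma F test adjusted p = 0.336). The castaneus mean of 7734 and the ssp mean of 13818 differed by -0.84 on the log2 scale (SE 0.28, 95% interval -1.50 to -0.17, limma adjusted p = 0.333). This probe set carries the suffix _s, with which Affymetrix marks probes shared by related transcripts.

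The 2 probe sets shared by all 3 Tcp10 copies did not show the same order. In the one without a suffix castaneus read 5734 and 8175, domesticus 4750 and 6896, musculus 5704 and 8122, and ssp 6322 and 8878. The groups overlapped throughout, with a span of 1.31-fold (F test adjusted p = 0.898). The other, with the suffix _f, read 6810 and 7473 in castaneus, 9913 and 12750 in domesticus, 9336 and 11636 in musculus, and 10689 and 11221 in ssp. Here both castaneus arrays were below all others, and the other 3 groups overlapped, with a span of 1.58-fold (adjusted p = 0.453). Castaneus was thus lowest in the Tcp10b and the _f probe sets, while domesticus was lowest in the one without a suffix.

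Tcp11, a sperm protein that acts in capacitation and motility through cAMP signalling, varied least among the members. Its intensities were 39529 and 35085 in castaneus, 36868 and 26766 in domesticus, 37561 and 26935 in musculus, and 44167 and 32618 in ssp. The 4 groups overlapped, and the means spanned 1.21-fold (limma F test adjusted p = 0.894), a smaller span than in all but 7.37% of tested probe sets. Its probe set carries the suffix _s too. The widest difference, domesticus at 31413 against ssp at 37956, was -0.27 on the log2 scale (95% interval -1.04 to 0.49), an interval that reaches a 2.05-fold higher level in ssp. Of the other sperm cAMP genes listed, 0 of 7 tested probe sets passed by limma and 0 had an unadjusted p under 0.05. The widest span was that of Crem, the activator of spermatid genes, with 143.3 in musculus and 264.2 in ssp (adjusted p = 0.595). Prkaca, the catalytic subunit of protein kinase A, spanned 1.49-fold.

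Tcp1 encodes the alpha subunit of the TRiC chaperonin, a double ring of related subunits that folds actin and tubulin. Its bright probe set read 788.5 and 1133 in castaneus, 959.8 and 1236 in domesticus, 1636 and 1423 in musculus, and 1269 and 1355 in ssp. Both musculus arrays were above the other 6, and the other 3 groups overlapped in part. The castaneus mean of 945.0 and the musculus mean of 1526 differed by -0.69 on the log2 scale (SE 0.29, 95% interval -1.39 to 0.01, limma adjusted p = 0.375). The second Tcp1 probe set was under the floor of 18.7 on 5 of 8 arrays and highest at 50.2, so it gives no order of the groups. Tcp1-ps1, the pseudogene on chromosome 4, read 123.7 and 112.8 in castaneus, 121.6 and 15.5 in domesticus, 260.4 and 65.7 in musculus, and 147.3 and 72.4 in ssp. Its domesticus arrays, 1 of them under the floor, differed by at least 6.50-fold, and with that array at the floor the group means spanned 2.74-fold.

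The other TRiC subunits were measured by 12 probe sets of 8 genes, and 0 of 12 passed by limma, with 1 at an unadjusted p under 0.05 and a median span of 1.38-fold. Castaneus was the highest group in 7 of the 12 and musculus in 2, whereas castaneus was highest in 24% of all tested probe sets and musculus in 25.6%. Some of these orders rest on narrow spans, such as the 1.07-fold of Cct7. The 2 Cct6a probe sets were highest in different groups, 1 in castaneus and 1 in ssp. Castaneus was the lowest group for Tcp1, which did not pass either, and for 2 of the 12. Cct6a had the widest span, 4.05-fold by a probe set that read 749.8 in castaneus and 185.0 in musculus (adjusted p = 0.209). The other Cct6a probe set spanned 1.62-fold and Cct5 1.57-fold. Cct6b, the testis form of the zeta subunit, read 6039, 6369, 7871 and 7792 in castaneus, domesticus, musculus and ssp. Of the cofactors of TRiC, 0 of 8 tested probe sets passed. Hspa2, the germ cell Hsp70, was lowest in domesticus at 4422, against 7985 to 9439 in the others (adjusted p = 0.156), and Pdcl3 spanned 1.77-fold. Of its client proteins, 0 of 17 passed, the widest being Actb at 4.79-fold and 4.08-fold by its probe sets, highest in musculus and lowest in domesticus (adjusted p = 0.382 and 0.286). Tubg1, gamma tubulin, spanned 2.31-fold, with 649.1 in domesticus and 1501 in ssp (adjusted p = 0.36).

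**Figure D4:**
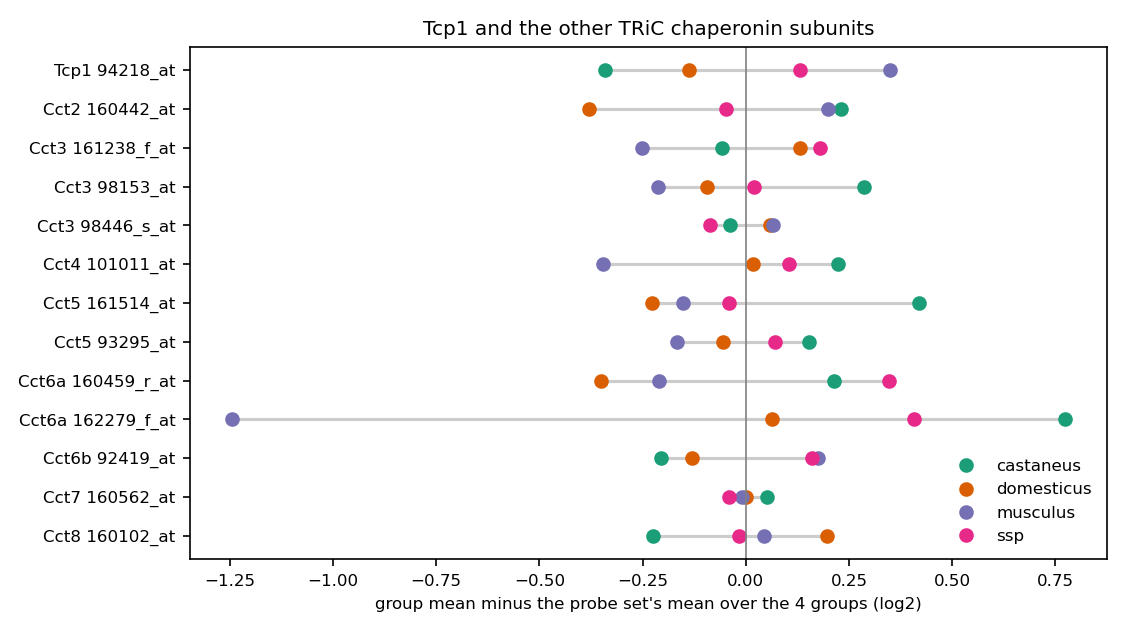
Group means of Tcp1 and of the 12 probe sets of other TRiC subunits, each as the log2 difference from that probe set's mean over the 4 groups, with 1 colour per group. Tcp1 is highest in musculus and lowest in castaneus, while castaneus is highest in 7 of the 12 others. None of the probe sets drawn passed the threshold.

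Counting all 9 tested members, 4 had a group whose 2 arrays both lay above or both below the other 6, near the 39.8% of all tested probe sets. They were Tcte2, the Tcte3 copies, the Tcp10 probe set with the suffix _f and Tcp1. The arrays with the same replicate number moved together in 6 of the 9, against 24% of all tested probe sets. Replicate 2 read below replicate 1 in all 4 groups for Tcp11, Tcte1 and Tcp1-ps1, and above it in all 4 for the 3 Tcp10 probe sets. In Tcte2 replicates differed by at most 1.13-fold, and in the Tcp10 probe set without a suffix by 1.40-fold to 1.45-fold.

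Around the members on chromosome 17, from the start of the chromosome through Tcte1 in gene order, 297 of 382 probe sets were tested and 6 passed by limma, 2.02% against 1.76% of all tested. These were 1700097N02Rik, H2-Aa, Zfp101, Dnase1l2, Agpat1 and Lst1, of which none is a member. The widest span was that of 1700097N02Rik, at 695.1 and 947.8 in castaneus and 17518 and 25686 in domesticus (adjusted p = 0.0321). Agpat1, a phospholipid synthesis enzyme, was at 324.7 and 421.1 in castaneus, against 1443 to 2792 on the other 6 arrays (adjusted p = 0.0391). Zfp101, a zinc finger gene, was at 23.2 and 11.7 in musculus and 152.2 and 198.3 in ssp (adjusted p = 0.0321). Its highest and lowest groups were those of Tcte2, but the 11.7 was under the floor of 18.7 and the 23.2 near it. Dnase1l2, a DNase I-like nuclease, was at 210.2 and 136.7 in musculus, against 11.7 to 36.6 on the other arrays (adjusted p = 0.0468). The lowest of those other arrays was under the floor too. Leaving out any 1 of the 8 arrays brought the count of 6 to 0, as did testing with no filter. Other genes tied to t haplotypes or mapped beside the members were measured by 7 probe sets of 5 genes, and 0 of the 5 tested passed by limma, with 2 at an unadjusted p under 0.05. Dnah8, an axonemal dynein heavy chain, read 1065 in castaneus and 3628 in domesticus by 1 of its probe sets (adjusted p = 0.162). Slc22a2, an organic cation transporter, spanned 3.88-fold, with 155.9 in musculus and 40.2 in ssp (adjusted p = 0.135).

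**Figure D5:**
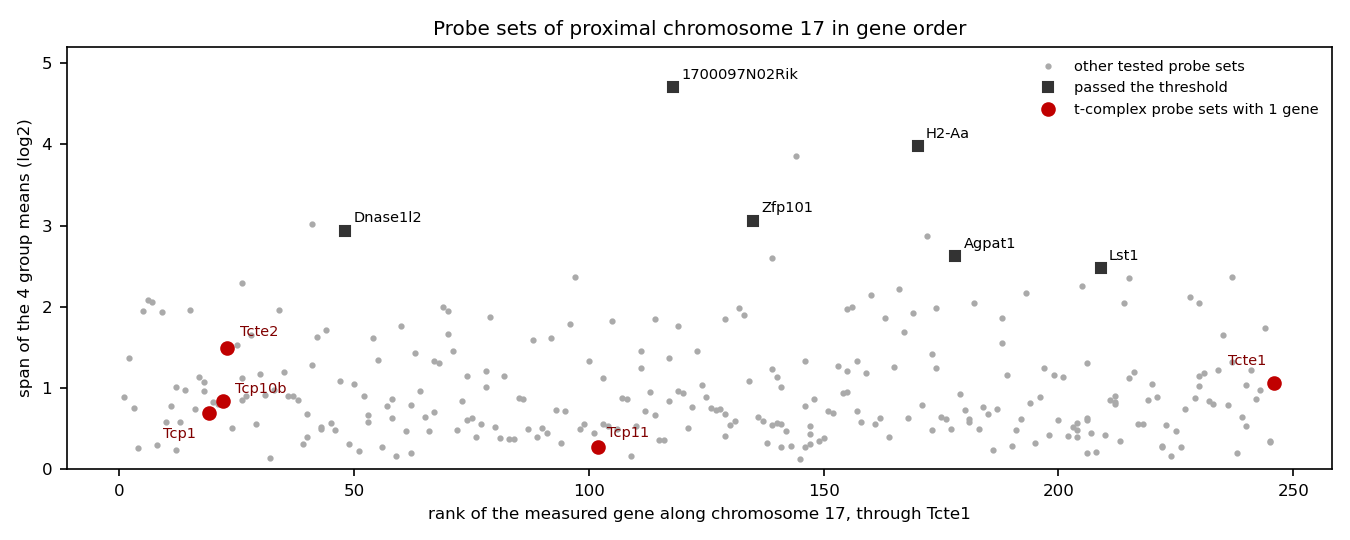
Span of the 4 group means (log2) of tested probe sets with 1 gene, in gene order along chromosome 17 through Tcte1. Red circles are t-complex members, dark squares the 6 probe sets that passed the threshold, and no red circle lies above 1.49.

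Genes with the most similar pattern were ranked by Pearson's r of log2 intensity over the 8 arrays, among the tested probe sets of other genes. These correlations describe 8 arrays that share groups and replicate numbers. Tcte2 was nearest to Col6a3, a collagen VI chain (r = 0.98), Ube2b, a ubiquitin-conjugating enzyme needed in spermatogenesis (0.98), and Gosr2, a Golgi SNARE (0.96). The Tcte3 copies were nearest to Dhrs7b (0.99), Gcnt1 (0.95) and Rcn2 (0.95), and Tcte1 to Sh3gl3 (0.95), Kdm5a (0.94) and Ptprg (0.94). Tcp10b was nearest to Cct6b (0.96), Prr15 (0.94) and Pkm (0.94). Tcp11 was nearest to Fbxw4 (0.95), Sec14l2 (0.95) and Mtmr14 (0.93), and Tcp1 to Epo (0.96), Krt33b (0.96) and Decr1 (0.94). Some of these similar genes were dim, where array medians ran from 151 to 183. Group means of Epo, Krt33b and Decr1 ran from 43.7 to 159.3, and those of Prr15, Kdm5a and Ptprg from 37.1 to 295.6. Between 9 and 23 tested probe sets had an r over 0.9 with each of these members.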

How the data were processed

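Testis RNA was measured on 8 arrays, 2 per group. Each deposited value is a linear intensity of a probe set on an array, already brought to a common scale; no source used here gives the probe summary method or the scaling, so an effect of that step on dim probe sets cannot be checked. Array medians ran from 151 to 183, and precision is limited by having 2 arrays a group. Intensities under the 10th percentile, 18.7, were raised to it before log2, with no further normalization. Symbols came from the platform annotation (10833 probe sets with 1 symbol, 396 with several, 1193 with none), updated through Entrez numbers to the RefSeq table of GRCm38.p6. The linear model (limma 3.58.1, R 4.3.3) had 1 mean per group over 8 arrays and 4 residual degrees of freedom. The code was also run on simulated data with shifts wider than any member's span. That run does not bear on differences of the size seen here. Pairs were tested by moderated contrasts, adjusted within each pair, at the thresholds of the F test. Specific to a group means passing in 1 direction against each other group. The members, gene lists and settings were chosen with earlier results of these data known. The naming rule took every member, up to 10 passing genes of proximal chromosome 17, and from each list of related genes those that passed or else the 2 with the widest span. Cct6b and Cct7 were named outside this rule. Of each cell type marker list the summed intensities are given, and Cyp17a1, Hba-a1 and Hspa2 were named there after the sums were seen. Promoter windows were taken from RefSeq. Tcp10 windows were aligned with MAFFT to mark the differing position, and pairwise with Biopython 1.88 to count matching bases. Alternatives covered the filter, floor, offset, normalization, variance model, replicate block, the arrays in the fit and each array left out.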

Additional observations from a re-analysis of the deposited data

How the results depend on the processing

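By limma's F test the count of members was 0 except for 1, Tcte2, with the filter at the 60th percentile and 1, again Tcte2, with a trended and robust variance. Member calls over the 6 pairs were 0 except for 1 each with the 60th percentile filter, the offset of 50 and quantile normalization, all of them Tcte2 between musculus and ssp, and 3 with the trended and robust variance. The trended and robust variance called 1 axonemal probe set. With any 1 array left out there were 0 member calls of either kind, and all 10 members were also members by updated symbols. The span of Tcte2 stayed between 2.61-fold and 2.95-fold over 16 alternatives, that of Tcp11 between 1.06-fold and 1.42-fold, and that of Tcp1-ps1, next to the floor, between 1.27-fold and 6.99-fold over the 15 that tested it. On proximal chromosome 17 the count of 6 became 0 with no filter, 12 with the trended and robust variance, and 0 to 0 with 1 array left out. The count of 156 over all probe sets became 309 with the 60th percentile filter, 31 with no filter, 383 with the trended and robust variance, and 7 to 43 with 1 array left out. The cause of these changes was not tested. With the replicate number as a block, members passing stayed at 0, the chromosome 17 count was 1 and the count over all probe sets 42. Replicate differences correlated at 0.03 to 0.17 between groups over tested probe sets, and the labels tie the numbers to no shared animal or day. Values near the floor of 18.7 have no order.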
